A study of Mus musculus with 38 samples.

Results

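The hypoxia response of GL261 cells that shared a dish with BV2 cells is described here across all genes, from 4 of the 38 RNA-sequencing libraries of the series. GL261 is a mouse glioma line, here stably carrying the green fluorescent protein plasmid pEGFP-N1, and BV2 is a mouse microglial line. The members were chosen by their labels: 2 co-culture libraries kept at 21% O2 (normoxia) and 2 kept below 0.1% O2 (hypoxia), 2 biological replicates per condition per the labels. In both groups BV2 cells had been seeded onto GL261 cells at 2 GL261 per BV2 cell, in BV2 medium (DMEM with 2% serum), and the cultures ran for 16 h at their oxygen level. Cells were fixed in 3% glyoxal, and poly(A) RNA was sequenced as read pairs. How GL261 cells were parted from BV2 cells, and whether the line is 1 clone, are not given in the sources used here. For comparison, 4 GL261 libraries from cells grown alone at the same oxygen levels were used, and 4 BV2 monoculture libraries served to find partner RNA.

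Cells sense oxygen through prolyl hydroxylases that mark the alpha subunits of the hypoxia-inducible factors (HIF) for destruction by the VHL complex. When oxygen is short the subunits last, pair with ARNT and bind DNA at the core letters ACGTG or GCGTG, near genes of glucose use, angiogenesis, mitophagy and the oxygen sensors themselves. Near-anoxia also stresses protein folding in the endoplasmic reticulum and can start the unfolded protein response and the integrated stress response, in which phosphorylated eIF2alpha favours ATF4. Gliomas are known for hypoxic zones, and microglia and macrophages gather in and around them.

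Library totals ran from 15410976 to 17998326 counts in the 4 co-culture libraries, so the floor of 3 counts corresponds to 0.167 to 0.195 counts scaled to the library total (CPM). Levels below are CPM scaled by TMM (trimmed-mean) factors unless said otherwise. A gene was called where edgeR's quasi-likelihood test over the 8 GL261 libraries gave a Benjamini-Hochberg adjusted p under 0.05 among the 15189 genes tested. Each fold change is hypoxia over normoxia on the log2 scale, with its standard error (SE). Neural and glioma markers were present in each of the 4 libraries: Vim at 7711, 7476, 6058 and 4881 CPM, Nes between 532 and 710, Sox2 between 334 and 643, and Sox10 between 690 and 1226. Sox9 and Prom1 did not reach the count filter. In bulk RNA, fewer cells of a type and less RNA per cell cannot be told apart.

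BV2 RNA was a minor part of these libraries, with a higher share in normoxia than in hypoxia. Over genes at least 100-fold higher in BV2 than in GL261 monocultures, the median level was 0.915 and 0.627% of the BV2 level in the normoxic co-culture libraries and 0.267 and 0.214% in the hypoxic ones (133 and 191 genes). In GL261 cells grown alone the same measure lay between 0.0226 and 0.0571%, below both co-culture groups. The genes were chosen for low levels in these same monocultures, so this is not an independent baseline. The normoxic and hypoxic co-culture values did not overlap. Spp1, Lpl and Laptm5, the BV2-specific genes with the highest BV2 levels, belong to this set and showed the same order. For Spp1, unscaled CPM were 40.2 and 24.8 in normoxic and 21 and 12.9 in hypoxic co-culture. In GL261 cells grown alone Spp1 fell too, from 15.5 and 9.92 to 6.98 and 3.79, so its order is not particular to co-culture. Lpl and Laptm5 stayed at or below 0.68 CPM there. Unscaled CPM of Lpl, a lipase made by lipid-handling macrophages, were 20.8 and 16.8 in normoxia and 5.57 and 4.17 in hypoxia, against 3284 in normoxic BV2. A gene was marked as possible partner RNA where BV2 RNA at the library's share could make up at least 10% of its level in any of the 4 libraries. This mark fell on 423 of the tested genes (2.785%), of which 74 were called higher and 112 lower in hypoxia. Over all 15189 tested genes 4071 were called higher (26.8%) and 3894 lower (25.6%). Of 26 microglia and macrophage markers 17 were tested. The defining markers Aif1, Itgam, Cx3cr1, P2ry12 and the 3 C1q genes did not reach the filter. In this list 9 members fell and 1, Tmem119, rose (1.72, not called without normoxic replicate 2, 1.02, or either hypoxic replicate, 1.62 and 1.86, and 3.19 without normoxic replicate 1), with a median of -1.46, and 14 carried the mark. The 9 became 1 without normoxic replicate 1 and 3 without hypoxic replicate 2, and after length-centring 7 fell and 1 rose. Ctss fell the most (4.81 and 2.39 CPM, then 1.45 and 0.453; -1.93, SE 0.60; not called without normoxic replicate 1, -1.34, or hypoxic replicate 2, -1.28, and -2.96 without hypoxic replicate 1). The marker Laptm5 is also among the genes that gave the BV2 share. The fall of these markers and the drop in that share are thus not independent. The part of BV2 RNA in results for marked genes was not tested.

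Fold changes also differed with transcript length. Among protein-coding genes, ordered by their longest annotated transcript and split into 10 equal classes of 1252 to 1255 genes, the median log2 change in co-culture ran from -0.77 in the shortest class to 0.56 in the longest. Of the shortest class 7.73% were called higher and 55.4% lower, and of the longest 55.4% and 9.57%. GL261 cells grown alone showed the same order with a smaller span, from -0.41 to 0.31. For lists below, counts are therefore also given after length-centring, an offset per library and length class that was chosen after the trend was seen. It used 20 length classes of tested genes and brought class medians closer together. Of the 10 classes above, the shortest still had a median of -0.18 after it, and the longest 0.03. Length-centring also takes away any response that truly goes with length. GC content moved too, from a median of 0.42 in the class with the lowest GC share to -0.25 in the highest, and was not corrected. The part of length or GC in any 1 gene's change was not tested.

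**Figure D1:**
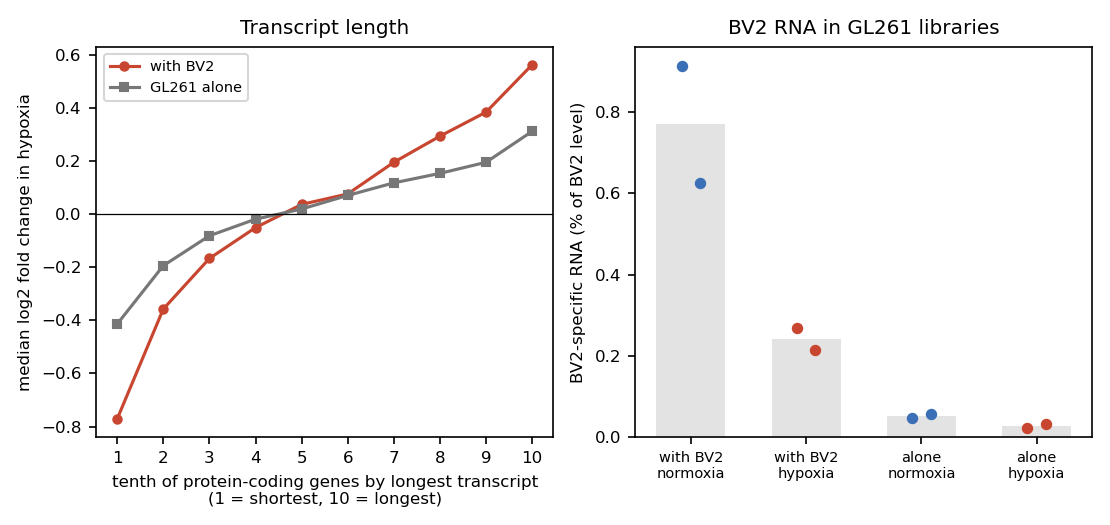
Left, median log2 fold change (hypoxia over normoxia) in each of 10 classes of protein-coding genes by longest transcript, for GL261 with BV2 (circles) and alone (squares): the line with BV2 runs from -0.77 to 0.56 and the other from -0.41 to 0.31. Right, BV2-specific RNA in each GL261 library as a percent of its BV2 level (points, libraries; bars, means of 2): normoxic co-cultures lie at 0.915 and 0.627%, hypoxic ones at 0.267 and 0.214%.

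Hypoxia changed 7965 of the 15189 genes in GL261 cells from co-culture (52.4%), 4071 higher (26.8%) and 3894 lower (25.6%). At least 2-fold differences were called for 1785 genes upward (11.8%) and 2019 downward (13.3%), at least 4-fold ones for 431 and 427, and at least 16-fold ones for 49 and 23. The median over all genes was -0.04. With length-centring 3831 genes were called higher (25.2%) and 3709 lower (24.4%), and 6218 of the 7965 genes were called by both. Of the 14766 genes without the partner mark, 7779 were called. The smallest change called was 0.30, and the coefficient of variation between replicates was 0.133, so the test reached small differences with 2 libraries per group.

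The largest rises are ranked over called genes whose mean log2 CPM reached 4, groups apart, no partner mark, no level 4-fold or more higher in BV2 and no predicted name. Aire came first (ENSMUSG00000000731, chr10:78030022-78043610). This gene encodes the autoimmune regulator, known for driving tissue antigens in thymic epithelium. It was near the floor in normoxia (0.13 and 0.614 CPM) and at 74.7 and 72.2 CPM in hypoxia (7.58, SE 0.32, edgeR adjusted p 1e-07). Its fold rests on few normoxic counts and was 6.89 without normoxic replicate 1 and 9.1 without normoxic replicate 2. The next was Ero1l (ENSMUSG00000021831, chr14:45283087-45318771), the oxidase that passes electrons from protein disulfide isomerase to oxygen. Its levels of 57.7 and 62.7 CPM in normoxia became 2470 and 3357 (5.60, SE 0.21, edgeR adjusted p 7e-08). Ankrd37, an ankyrin-repeat gene (ENSMUSG00000050914, chr8:45996902-46005707), went from 2.86 and 3.38 to 87.3 and 89.4 CPM (4.82, SE 0.17). In these 3 genes the hypoxic replicates lay close together and far from the normoxic ones. Cyp1a1, Tnfaip3, Atf3, Bnip3, Vegfa and Gadd45b were also among the 10 largest rises. For Gadd45b, a stress-induced growth-arrest gene, 16.6 and 15.8 CPM became 429 and 234 (4.35, SE 0.34).

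Nuclear genes, which were the larger part, and mitochondrial messages made up the 10 largest falls. Ankle1, an endonuclease that acts on branched DNA (ENSMUSG00000046295, chr8:71406010-71409904), fell from 68.9 and 67.2 to 4.92 and 6.06 CPM (-3.63, SE 0.19, edgeR adjusted p 3e-07). Gamt, the last enzyme of creatine synthesis, fell from 38.2 and 35.2 to 3.72 and 3.4 CPM (-3.36, SE 0.19). Crip1, a small LIM-domain gene, fell from 106 and 86.2 to 13.1 and 7.65 (-3.22, SE 0.29). Ahsa1, the co-chaperone that speeds the ATPase of HSP90, fell from 147 and 139 to 18.2 and 21.5 (-2.85, SE 0.14). Olig1 and S100b, described with the lineage genes, and mt-Nd4, mt-Nd1, mt-Nd2 and mt-Cytb completed the 10. In none of the 20 genes did a hypoxic library overlap a normoxic one, as the rule for naming them required.

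**Figure D2:**
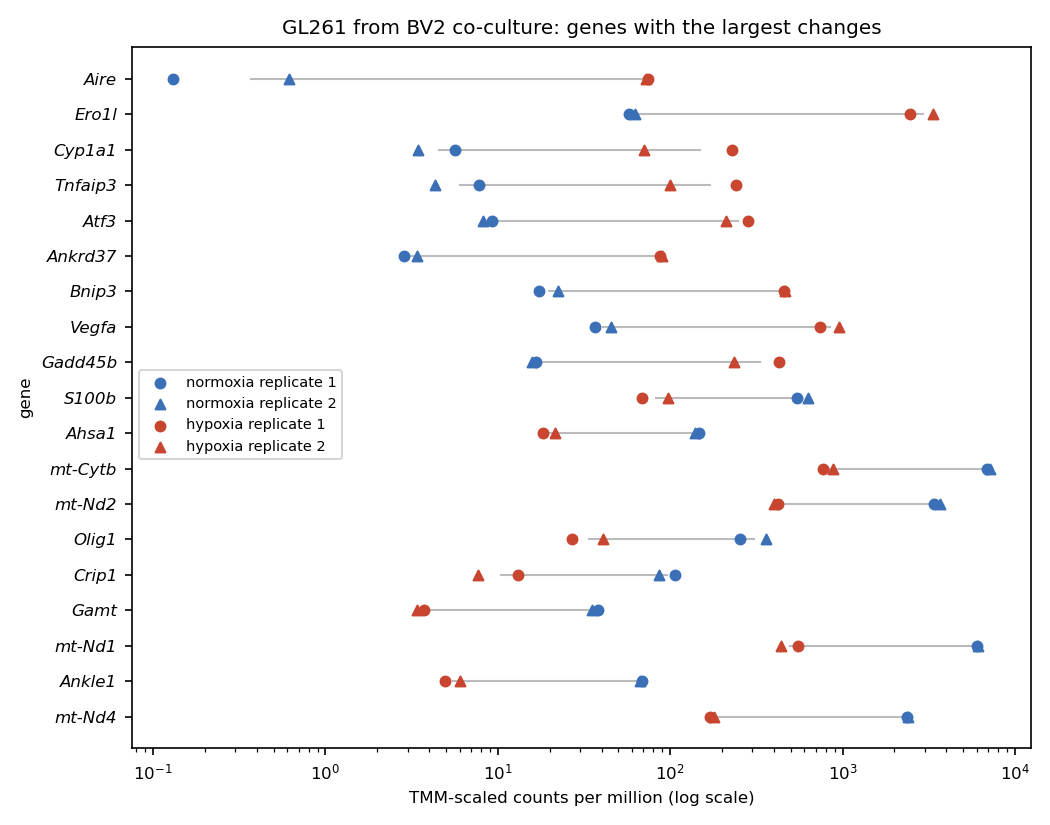
Levels of 9 of the 10 strongest risers and of the 10 strongest fallers, in TMM-scaled CPM on a log scale, in each of the 4 co-culture libraries (circles, replicate 1; triangles, replicate 2; grey lines join group means). Hypoxic points of Ero1l sit at 2470 and 3357 against 57.7 and 62.7 in normoxia, and replicate 1 of Cyp1a1 in hypoxia, at 229, lies above replicate 2 at 70.8.

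**Figure D3:**
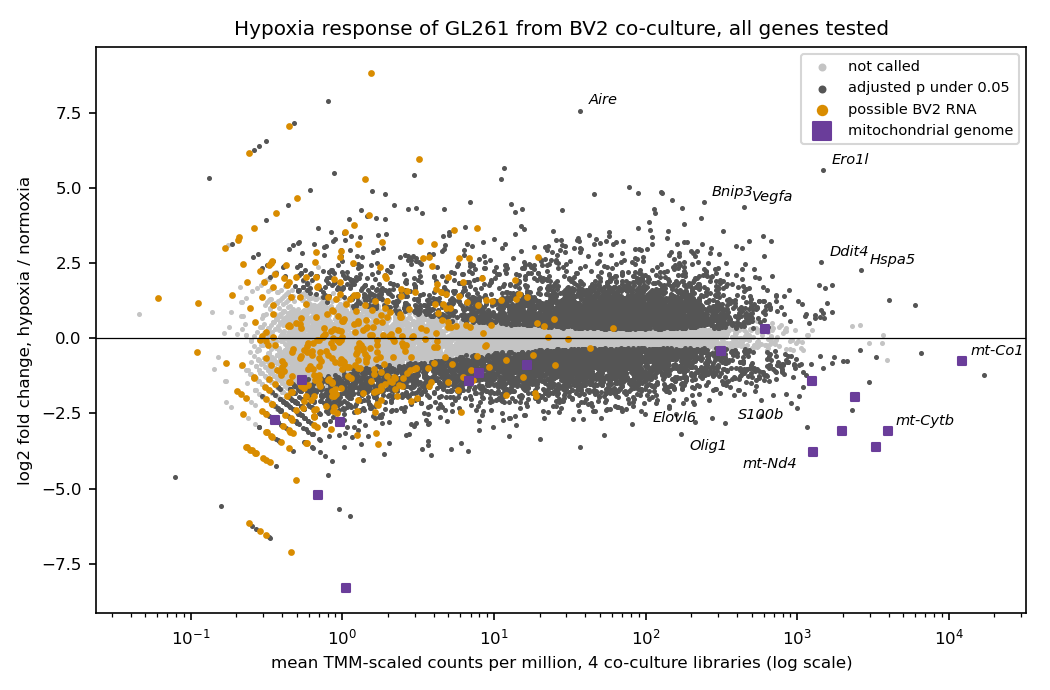
Log2 fold change of every tested gene in GL261 from co-culture against its mean level over the 4 libraries (log scale). Grey points were not called, dark points were, orange points carry the possible BV2 RNA mark and purple squares are genes of the mitochondrial genome, with mt-Nd4 at -3.77 and Aire at 7.58.

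The oxygen-sensing genes rose as a group: of 12 listed 10 were tested, 8 were higher and 1 lower, with a median of 1.12. Egln3, the prolyl hydroxylase best known as a HIF target (chr12:54178981-54203860), rose from 11.6 and 13.1 to 113 and 104 CPM (3.13, SE 0.16, edgeR adjusted p 2.7e-07). Egln1, the main prolyl hydroxylase, was the most abundant member and rose from 78.2 and 88.2 to 260 and 306 CPM (1.76, SE 0.14). Vhl, which recruits the ubiquitin ligase to HIF alpha subunits, rose by 1.72, Hif1a by 1.17 and Arnt by 0.88. The third prolyl hydroxylase gene, Egln2, fell from 65.3 and 55.5 to 42.3 and 41.6 CPM (-0.52, SE 0.13), a call lost without normoxic replicate 1 (-0.39). Epas1, which encodes HIF-2alpha, had 3, 0, 3 and 0 counts and was not tested. Length-centring left 7 higher and 1 lower.

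Promoter windows of the rising genes Ero1l, Bnip3, Ankrd37 and Egln3 and of the falling gene Ankle1 are shown for the core letters of HIF binding. They are RefSeq windows of build GRCm38.p6, from 250 bases before to 50 after the annotated start, read in the gene's direction. Capitals mark ACGTG or GCGTG and, for the other strand, CACGT or CACGC. Neighbouring and overlapping matches run together, and a palindromic CACGTG counts once on each strand.
Ero1l: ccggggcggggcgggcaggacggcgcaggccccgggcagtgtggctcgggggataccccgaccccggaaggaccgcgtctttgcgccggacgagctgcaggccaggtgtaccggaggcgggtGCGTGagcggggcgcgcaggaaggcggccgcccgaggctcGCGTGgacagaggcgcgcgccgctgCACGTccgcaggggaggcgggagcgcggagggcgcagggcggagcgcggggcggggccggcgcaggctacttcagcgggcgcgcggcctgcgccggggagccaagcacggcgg
Bnip3: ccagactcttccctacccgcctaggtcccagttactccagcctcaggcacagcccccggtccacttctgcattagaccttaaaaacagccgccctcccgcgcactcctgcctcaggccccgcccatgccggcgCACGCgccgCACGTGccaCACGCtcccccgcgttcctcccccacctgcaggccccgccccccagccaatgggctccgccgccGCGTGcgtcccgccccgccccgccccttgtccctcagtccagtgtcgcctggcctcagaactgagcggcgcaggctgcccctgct
Ankrd37: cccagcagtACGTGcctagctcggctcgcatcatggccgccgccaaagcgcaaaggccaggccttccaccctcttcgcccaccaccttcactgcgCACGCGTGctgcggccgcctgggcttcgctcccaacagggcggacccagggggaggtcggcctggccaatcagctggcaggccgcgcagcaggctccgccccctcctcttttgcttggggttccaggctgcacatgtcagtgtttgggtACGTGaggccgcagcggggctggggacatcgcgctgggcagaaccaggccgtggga
Egln3: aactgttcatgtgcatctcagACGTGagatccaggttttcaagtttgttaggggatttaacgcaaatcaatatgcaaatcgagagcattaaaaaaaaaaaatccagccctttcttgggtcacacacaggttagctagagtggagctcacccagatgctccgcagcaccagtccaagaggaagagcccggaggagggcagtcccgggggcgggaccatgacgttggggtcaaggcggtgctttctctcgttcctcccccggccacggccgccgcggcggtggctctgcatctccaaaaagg
Ankle1: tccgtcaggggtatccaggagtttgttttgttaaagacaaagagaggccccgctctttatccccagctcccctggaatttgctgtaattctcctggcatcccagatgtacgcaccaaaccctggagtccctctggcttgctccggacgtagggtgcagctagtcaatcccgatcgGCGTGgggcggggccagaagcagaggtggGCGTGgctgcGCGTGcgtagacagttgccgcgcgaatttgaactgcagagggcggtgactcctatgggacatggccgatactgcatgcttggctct
The windows lie at chr14:45318523-45318822 (Ero1l, minus strand, 3 matches), chr7:138909457-138909756 (Bnip3, minus strand, 5), chr8:45999801-46000100 (Ankrd37, minus strand, 4), chr12:54203825-54204124 (Egln3, minus strand, 1) and chr8:71405762-71406061 (Ankle1, plus strand, 3). In the RefSeq table Ero1l is listed as Ero1a. Ankle1, which fell by 3.63, thus held as many matches as Ero1l. Of all 32851 RefSeq windows, 43.8% held such a match. The share was 61% in windows of tested genes, 59.5% in those called at least 2-fold higher and 61.7% in those called at least 2-fold lower. For ACGTG alone on either strand the shares were 25, 28 and 23.2%. Such a match is a description of letters and not a site.

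Genes of glucose uptake and glycolysis rose in most cases: 24 of 29 tested members were higher and 3 lower, with a median of 1.42, and length-centring left 23 and 3. The 3 lower became 1 when any of the 4 co-culture libraries was left out. With the members that BV2 expressed 4-fold or more above GL261 left out, 14 of 19 were higher. Pdk1, the kinase that shuts pyruvate dehydrogenase, rose the most, from 21.9 and 28 to 253 and 248 CPM (3.33, SE 0.16, edgeR adjusted p 1.7e-07). Slc2a1, the main glucose transporter of these cells, went from 83.1 and 84.3 to 667 and 734 CPM (3.07, SE 0.15). Hk2, which traps glucose in the cell, rose by 2.83, Pfkl by 2.11, the lactate exporter Slc16a3 by 2.02 and Ldha by 1.76. Ldhb, the form of lactate dehydrogenase that favours lactate use, fell from 44.8 and 46.2 to 10.4 and 14.2 CPM (-1.88, SE 0.17). Gapdh was the most abundant member and was not called (2401, 2034, 3064 and 2943 CPM; 0.44, SE 0.20, edgeR adjusted p 0.085).

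Of 7 tested pH regulators 2 rose and none fell, with a median of 0.36, and 2 and 1 after length-centring. Car9, the cell-surface carbonic anhydrase of hypoxic tumours, rose from 3.25 and 4.3 to 39.2 and 50.9 CPM (3.57, SE 0.24). Slc4a2, an anion exchanger, rose by 0.44, a call lost without normoxic replicate 2 (0.38) or hypoxic replicate 1 (0.44). Bsg, the chaperone of lactate transporters, was the most abundant at 800, 676, 697 and 715 CPM and was not called. Among 13 tested angiogenic ligands and receptors 6 rose and 2 fell, with a median of 0.19, and 6 and 3 after length-centring. Vegfa, the chief endothelial growth factor, was the most abundant, at 36.8 and 45.3 CPM in normoxia and 740 and 952 in hypoxia (4.37, SE 0.18, edgeR adjusted p 1e-07). The vasodilator peptide gene Adm had the largest rise from a low start (0.325 and 0.798, then 9.78 and 16.8 CPM; 4.54, SE 0.52, and 5.36 without normoxic replicate 2). The relative Pgf rose by 2.05, whereas Vegfb fell from 53.6 and 54.9 to 19.1 and 28.8 CPM (-1.18, SE 0.21) and Angpt2 fell by 0.53.

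In the list of mitophagy and autophagy genes 8 of 19 tested members rose and 1 fell, with a median of 0.18, and 9 and 1 after length-centring. Bnip3, the mitophagy receptor on the outer mitochondrial membrane (chr7:138890836-138909519), rose from 17.4 and 22.5 to 458 and 467 CPM (4.54, SE 0.18, edgeR adjusted p 8.2e-08). Its relative Bnip3l rose by 1.67. The cargo receptor Sqstm1 was the most abundant, at 271 and 253 and then 1162 and 1051 CPM (2.08, SE 0.14). Core autophagy genes such as Becn1 (-0.02), Atg5 (0.00) and Ulk1 (-0.01) were not called, and Tfeb, a transcription factor for lysosomal genes, fell by 0.61, a call lost without replicate 1 of normoxia (-0.39) or hypoxia (-0.38). Brakes on mTOR and growth rose in 12 of 15 cases and fell in 1, with a median of 1.85, and 11 and 1 after length-centring. Ccng2, an unconventional cyclin of resting cells, went from 42.6 and 43.3 to 281 and 293 CPM (2.74, SE 0.15). Ddit4, the hypoxia-induced inhibitor of mTORC1, was the most abundant and rose from 386 and 456 to 2221 and 2698 CPM (2.55, SE 0.17). Sesn2 rose by 2.36 and the CDK inhibitor Cdkn1a by 2.32, and Cdkn2c, another CDK inhibitor, fell from 90 and 92.1 to 37.3 and 37.5 CPM (-1.28, SE 0.12).

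All 12 tested messages of the mitochondrial genome fell, with a median of -2.33. Their share of all counts was 3.744 and 3.999% in the normoxic co-culture libraries and 1.059 and 1.295% in the hypoxic ones, against 3.542 and 3.722% and then 1.652 and 1.862% in GL261 cells grown alone. Among members given a fold here, mt-Nd4 and mt-Nd1, both of complex I, fell the most. Levels of mt-Nd4 were 2357 and 2406 CPM in normoxia and 171 and 179 in hypoxia (-3.77, SE 0.16, edgeR adjusted p 1e-07), and mt-Nd1 went from 6060 and 6127 to 552 and 440 (-3.62, SE 0.21). mt-Cytb, of complex III, fell from 6913 and 7202 to 775 and 884 CPM (-3.09, SE 0.16), and mt-Nd2 fell by 3.09. mt-Co1, of complex IV, was the most abundant and fell less, from 14650 and 16107 to 8030 and 10070 CPM (-0.76, SE 0.17). mt-Nd6, which is also of complex I, fell by only 0.44, a call lost without any 1 of the 4 libraries (-0.47 to -0.37). mt-Nd4l had 20 and 23 counts in normoxia and 1 and 0 in hypoxia and carried the partner mark. These members are not equally unique: 5 of them, mt-Co2, mt-Atp6, mt-Co3, mt-Nd3 and mt-Nd4l, share over 97% of their 75-base words with other annotated genes, mt-Nd4 61.5% and mt-Co1 39.8%, so their counts are uncertain, while mt-Nd1, mt-Cytb and mt-Nd6 share none. The messages are short, and after length-centring 6 were called lower and 1, mt-Nd6, higher, with a median of -1.73. Leaving mitochondrial genes out before scaling gave 7966 calls.

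The nuclear-encoded respiratory chain subunits were called lower in 41 of 50 tested cases and higher in none, with a median of -0.92. Cox6b1, of complex IV, fell the most, from 246 and 226 to 55.7 and 42.3 CPM (-2.27, SE 0.21, edgeR adjusted p 8.2e-06). Cox7a2 and Cox7b, also of complex IV, fell by 2.27 and 2.12, and Ndufa4 by 1.75. Atp5b, of the ATP synthase, was the most abundant, at 1145 and 936 and then 784 and 614 CPM (-0.57, SE 0.20), a call lost without normoxic replicate 1 (-0.42) or hypoxic replicate 2 (-0.38). Large members such as Sdha (0.26) and Ndufs1 (-0.17) were not called. These genes are short, with a median longest transcript of 1240 bases, and the shortest class of all protein-coding genes had a median of -0.77. After length-centring 24 members were lower and 2 higher, with a median of -0.32, against -0.18 in that shortest class. Cox6b1 (-1.42), Cox7a2 (-1.55) and Cox7b (-1.54) were still among those called lower.

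Of the tricarboxylic acid cycle genes 10 of 21 fell and 2 rose, with a median of -0.31, and length-centring left 10 and 2. The 2 higher became 1 without normoxic replicate 1, normoxic replicate 2 or hypoxic replicate 1. Mdh2, mitochondrial malate dehydrogenase, fell from 347 and 298 to 154 and 141 CPM (-1.13, SE 0.15). Pcx, pyruvate carboxylase, rose from 10.6 and 8.04 to 16.8 and 18.2 CPM (0.91, SE 0.18). Citrate synthase, Cs, the most abundant, was not called (441, 433, 381 and 368 CPM). Among genes of mitochondrial transcription, RNA handling and translation, 5 of 27 rose (18.5%, against 26.8% of all genes) and 6 fell (22.2%, against 25.6%). Both shares lay below those of all genes. The median was -0.07, and length-centring gave 6 higher and 7 lower. Mtpap, the mitochondrial poly(A) polymerase, rose from 27.5 and 29.6 to 58.2 and 48.2 CPM (0.90, SE 0.15), and Mrpl12, a ribosomal protein that also binds the mitochondrial RNA polymerase, fell from 152 and 126 to 49.1 and 49.8 (-1.49, SE 0.15). The polymerase gene Polrmt (0.13), the packaging factor Tfam (-0.17) and Pnpt1, the most abundant member (0.01; 179, 194, 200 and 176 CPM), were not called.

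Protein folding in the endoplasmic reticulum was a further rising group. Of 23 tested genes of oxidative folding and the unfolded protein response 15 rose and none fell, with a median of 0.75, and 17 rose after length-centring. Beside Ero1l, its paralog Ero1lb rose by 1.44. Hspa5, which encodes the chaperone BiP, was the most abundant and rose from 860 and 955 to 4202 and 4544 CPM (2.27, SE 0.15, edgeR adjusted p 1.2e-06). Dnajb9 rose by 3.14, Herpud1 by 2.22 and all 3 stress sensors of this compartment rose: Atf6 by 2.52, Eif2ak3 by 1.55 and Ern1 by 1.30. The calnexin cycle genes Calr (-0.39), Canx (0.23) and Pdia3 (-0.02) were not called.

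The integrated stress response list had the largest share called higher of all lists, with 21 of 22 tested members higher and none lower. After length-centring 21 rose too. The median was 1.65 (1.64 length-centred), with a like median of 1.71 in cells grown alone. Atf3 rose from 9.29 and 8.17 to 284 and 210 CPM (4.82, SE 0.25, edgeR adjusted p 2.7e-07). Ddit3, which encodes CHOP, rose from 12.7 and 14 to 196 and 196 CPM (3.87, SE 0.21). The phosphatase subunit Ppp1r15a rose by 3.58, the cystine carrier Slc7a11 by 3.46, Trib3 by 2.85 and asparagine synthetase, Asns, by 1.46. Atf4 itself, the most abundant member, rose less, from 577 and 610 to 1030 and 1064 CPM (0.82, SE 0.14). Psat1, a serine synthesis enzyme, was not called (-0.08).

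Genes for oxygen-using chromatin enzymes, the JmjC histone demethylases and TET dioxygenases, rose in 19 of 22 tested cases and fell in 1, with a median of 1.52. Kdm3a, a demethylase of histone H3 lysine 9, rose the most and was also the most abundant, going from 100 and 105 to 1154 and 1009 CPM (3.39, SE 0.17, edgeR adjusted p 2e-07). Kdm7a rose by 2.75, Kdm5b by 2.54, Kdm6b by 2.31 and Tet1 by 2.20. Kdm8 fell from 13.5 and 13 to 3.47 and 3.4 CPM (-1.94, SE 0.24). Transcripts of this list are long, with a median longest form of 6361 bases. After length-centring 17 rose and 1 fell, with a median of 1.07.

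Clock genes rose in 17 of 18 tested cases with none lower and a median of 1.24, and 14 rose after length-centring. The repressor Bhlhe40, also known as a HIF target, rose the most. It was at least 4-fold higher in BV2 than in GL261 monocultures, which kept it out of the ranking above, but did not carry the partner mark. It was the most abundant and went from 12.2 and 11.6 to 281 and 293 CPM (4.59, SE 0.18, edgeR adjusted p 7.6e-08). Arntl, which encodes BMAL1, rose by 3.40, Rora by 3.30, Per1 by 2.98, Ciart by 2.93 and Nr1d1 by 2.57. Activators and repressors of the loop thus rose together.

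Of 13 collagen-modifying enzymes tested 6 rose and 4 fell, with a median of 0.29, and 7 and 4 after length-centring. P4ha1, the catalytic subunit of collagen prolyl 4-hydroxylase, rose the most and was the most abundant, from 125 and 134 to 1222 and 1225 CPM (3.24, SE 0.15). P4ha2 rose by 3.13 and the lysyl hydroxylase Plod2 by 2.00. The third catalytic subunit, P4ha3, fell by 0.99, and Loxl3, a lysyl oxidase, fell from 236 and 199 to 66 and 78.2 CPM (-1.59, SE 0.16). Of 20 collagens and matrix glycoproteins 9 rose and none fell, with a median of 0.56; 1 fell without normoxic replicate 2 or hypoxic replicate 1. These transcripts are long (median 5988 bases), and length-centring gave 4 higher and 3 lower with a median of 0.20. Thbs1, thrombospondin 1, rose from 7.67 and 6.26 to 83.6 and 47.8 CPM (3.24, SE 0.42). Lama4 rose by 1.96. Sparc, the most abundant, was not called (4063, 3605, 3317 and 3533 CPM).

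Of 21 matrix proteolysis genes 7 were higher (33.3%, against 26.8% of all genes) and 6 lower (28.6%, against 25.6%), with a median of 0.06, so the list lay near the background. Length-centring gave 6 and 6, and the 6 lower became 3 without normoxic replicate 1. The stromelysin-family gene Mmp11 rose by 1.68 and the cathepsin Ctsl by 1.41. The membrane-type metalloproteases fell: Mmp15 from 407 and 480 to 124 and 152 CPM (-1.68, SE 0.17) and Mmp14 by 0.98. Mmp2, the most abundant, was not called (610, 517, 472 and 437 CPM).

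Lipid genes moved both ways. In storage and fatty acid synthesis 10 of 19 rose and 7 fell, with a median of 0.61, and 11 and 7 after length-centring. Rising members included Gpat3, an acyltransferase of the glycerolipid path (1.69 and 1.97, then 19.4 and 17 CPM; 3.31, SE 0.28), the lipase inhibitor G0s2 (2.01) and the desaturases Scd1 (1.78) and Scd2. Scd2 was the most abundant, at 2323 and 2387 and then 5715 and 5581 CPM (1.26, SE 0.18). Synthesis and oxidation enzymes fell: Elovl6, which lengthens fatty acids, from a mean of 159 ± 11.6 (SD, n = 2) to 36.7 and 34.3 CPM (-2.17, SE 0.12, edgeR adjusted p 5e-07), Fasn by 1.26, Acly by 1.21, Acaca by 1.12 and Cpt1a by 1.19. Of 26 cholesterol genes 7 rose (26.9%, against 26.8% of all genes) and 9 fell (34.6%, against 25.6%), with a median of -0.21. At least 2-fold changes were called for 2 upward and 4 downward, and the members that fell are not reported here. Length-centring gave 4 higher and 11 lower. The 7 became 4 without normoxic replicate 1 and 3 without hypoxic replicate 1. Insig2 rose from 26.1 and 25.1 to 51.5 and 64.9 CPM (1.19, SE 0.15) and Insig1 by 1.10, both of which hold back SREBP.

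Purine and folate genes fell more often than they rose: 11 of 18 fell and 4 rose, with a median of -0.59, and 10 and 3 after length-centring. Paics fell by 1.27, Atic by 1.28 and Gart by 1.39, and the cytosolic folate enzyme Mthfd1 fell from 120 and 110 to 42.2 and 43.9 CPM (-1.42, SE 0.12, edgeR adjusted p 5e-06). The mitochondrial folate enzymes moved the other way: Mthfd2 rose from 122 and 122 to 238 and 225 CPM (0.92, SE 0.12), and Shmt2, the most abundant, from 395 and 373 to 637 and 604 (0.69, SE 0.13).

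Of 44 DNA replication genes 19 fell and 5 rose, with a median of -0.19, and 22 and 5 after length-centring. The 5 became 2 without normoxic replicate 1, normoxic replicate 2 or hypoxic replicate 1. Enzymes that supply nucleotides were among those that fell: Tk1, thymidine kinase, from 143 and 126 to 28.3 and 33.8 CPM (-2.12, SE 0.15, edgeR adjusted p 1.5e-06), Dut by 1.74 and Rrm2 by 1.28. The helicase subunits Mcm2, Mcm4, Mcm5 and Mcm7 were not called (-0.16 to 0.04). Mcm3 was the most abundant and rose from 229 and 218 to 339 and 311 CPM (0.54, SE 0.15; not called without normoxic replicate 1, 0.58, normoxic replicate 2, 0.54, or hypoxic replicate 1, 0.49), and E2f2 rose from 17.3 and 16.8 to 34.1 and 32.1 (0.95, SE 0.16).

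Repair and mitosis genes were mixed. In homologous recombination, Fanconi and mismatch repair 11 of 34 rose and 13 fell, with a median of -0.10, and 8 and 14 after length-centring. The 13 became 8 without normoxic replicate 1 and 7 without hypoxic replicate 1. Brca1, the most abundant, rose from 59.7 and 56.3 to 138 and 122 CPM (1.17, SE 0.16), Fancm from 23.6 and 28.5 to 61.8 and 55.5 (1.17, SE 0.19), and Brca2 by 1.02. Apart from Ankle1, the largest fall was that of Xrcc3 (-1.74). Of 40 mitosis genes 16 fell and 10 rose, with a median of -0.26, and 18 and 9 after length-centring. Pttg1, securin, fell from 113 and 117 to 32.5 and 32 CPM (-1.84, SE 0.15), Ccnb2 by 1.56, Cdc20 by 1.18 and Cdk1 by 1.13. The cytokinesis scaffold Anln rose from 427 and 439 to 1147 and 887 (1.23, SE 0.22). Mki67, the most abundant, rose from 788 and 894 to 1562 and 1258 CPM (0.74, SE 0.19), but it was not called length-centred (0.16) or without replicate 1 of normoxia (0.66) or hypoxia (0.59).

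Immediate early genes rose in 22 of 26 cases and fell in none, with a median of 1.80, and 22 and 0 after length-centring. Maff rose from 11.4 and 10.5 to 257 and 175 CPM (4.30, SE 0.30). Jun, the most abundant, rose from 196 and 215 to 901 and 805 (2.05, SE 0.14, edgeR adjusted p 1.3e-06), and Junb, Fosl2 and Fos rose by 3.02, 2.81 and 1.90. Nr4a1, Nr4a2 and Dusp6 were not called (0.12, -0.03 and -0.01). Among targets of the aryl hydrocarbon receptor, which shares the partner ARNT with HIF, 5 of 8 rose and 1 fell, with a median of 2.62 and the same counts after length-centring. Cyp1a1, its classic target, was at 5.65 and 3.44 CPM in normoxia and 229 and 70.8 in hypoxia (5.04, SE 0.54, and 3.97 without hypoxic replicate 1 or 5.68 without hypoxic replicate 2). Tiparp, the most abundant, went from 61.7 and 57.4 to 566 and 391 CPM (3.01, SE 0.19), and the receptor gene Ahr rose by 2.98. Nqo1, which NRF2 also drives, fell from 23.3 and 16.1 to 9.4 and 6.06 CPM (-1.35, SE 0.38), a call lost without normoxic replicate 1 (-1.05) or hypoxic replicate 2 (-1.04).

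Of 35 cytokine and chemokine genes 21 were tested, 11 were higher and 2 lower, and their median was 1.75, with 13 and 2 after length-centring. The 11 became 7 without normoxic replicate 2 or hypoxic replicate 1. The 2 lower became 0 without normoxic replicate 1 and 1 without either hypoxic replicate. Lif, the interleukin-6 family cytokine, rose from 0.65 and 0.246 to 35.3 and 10.3 CPM (5.66, SE 0.76, and 4.52 without hypoxic replicate 1 to 6.50 without normoxic replicate 1). Csf1, the growth factor of microglia and macrophages, rose from 32.6 and 21.2 to 652 and 217 CPM (4.02, SE 0.54, edgeR adjusted p 0.0001; 3.03 without hypoxic replicate 1 and 4.63 without hypoxic replicate 2). Cxcl10, a chemokine for T cells, rose from 26.3 and 21.9 to 488 and 182 (3.80, SE 0.48, and 2.93 without hypoxic replicate 1). Ccl2 also rose but carried the partner mark (1.43, 0.798, 25.6 and 3 CPM), and it was not called without normoxic replicate 2 (3.34) or hypoxic replicate 1 (1.44). In each of these genes the first hypoxic library was over 2 times the second, and Cyp1a1 and Tnfaip3, the brake on NF-kappaB (7.8, 4.3, 242 and 100 CPM; 4.82, SE 0.49, and 4.07 without hypoxic replicate 1), showed the same order. Tgfb2 rose by 1.10. Ccl9 fell the most and carried the mark (4.09, 2.15, 1.14 and 1.13 CPM), and it was not called without normoxic replicate 1 (-0.91), hypoxic replicate 1 (-1.44) or hypoxic replicate 2 (-1.43). Mif, the most abundant, was not called (469, 454, 535 and 472 CPM), though it was after length-centring (0.98).

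The acute-phase and STAT3 list held 7 higher and 1 lower of 14, with a median of 0.78, and 6 and 2 after length-centring. Junb had the largest rise and was the most abundant member (92.1, 99, 897 and 648 CPM; 3.02, SE 0.22), the receptor gene Osmr rose by 2.78, and Serpina3n fell from 455 and 327 to 240 and 186 CPM (-0.88, SE 0.19). Interferon-stimulated genes did not move as a block: 5 of 38 rose (13.2%, against 26.8% of all genes) and 10 fell (26.3%, against 25.6%). The share that fell was thus near that of all genes, and the share that rose was lower. The median was -0.03, and length-centring gave 5 higher and 5 lower. Isg20 rose from 4.48 and 3.07 to 20.8 and 19.9 CPM (2.43, SE 0.34), the transcription factor Irf1 rose by 2.09, and the RNA sensor Ddx58, the most abundant, rose from 207 and 196 to 423 and 320 (0.88, SE 0.17). Lgals3bp fell by 1.28 and Bst2 by 1.24, and Oasl1, at 1.1, 1.11, 0.315 and 0.0567 CPM, fell the most and carried the partner mark. No fold is given for it at these counts, and its call was lost without normoxic replicate 2 or hypoxic replicate 2. The 10 lower members became 5 without normoxic replicate 1 and 4 without normoxic replicate 2 or hypoxic replicate 2. The 5 higher ones became 3 without hypoxic replicate 1 and 10 without hypoxic replicate 2.

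In class I antigen presentation 4 of 18 rose (22.2%) and 5 fell (27.8%), near the shares of all genes (26.8 and 25.6%), with a median of -0.29. Length-centring left 4 and 5, and the 5 became 8 without hypoxic replicate 1. With such BV2-high members left out, 1 of 12 rose. The heavy chains H2-Q4 (51.7, 43.1, 137 and 80.4 CPM; 1.20, SE 0.23) and H2-K1 (1.11) rose, and 7.02 and 3.10% of their 75-base words are shared with other genes. Proteasome genes fell: Psmb10 from 63 and 52.4 to 18.5 and 16.7 CPM (-1.71, SE 0.18), Psme1 by 1.16 and Psme2 by 1.14. B2m was not called (-0.20), nor was Calr, the most abundant member (1221, 1261, 909 and 985 CPM).

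Of 25 glial and neural lineage genes 11 fell and 6 rose, with a median of -0.18, and 12 and 7 after length-centring. The 11 became 7 without normoxic replicate 1 and 6 without normoxic replicate 2. The oligodendrocyte-lineage factor Olig1 fell furthest, from 253 and 359 to 27 and 41 CPM (-3.17, SE 0.30, edgeR adjusted p 9.6e-06). Olig2, a factor of the same lineage, fell from 76.4 and 106 to 22.5 and 29.4 (-1.82, SE 0.25). S100b, a calcium-binding glial protein gene, fell from 542 and 628 to 68.6 and 97.2 CPM (-2.82, SE 0.25). Sox10 fell by 0.68 and Vim, the most abundant, by 0.47. The call of Vim was lost without normoxic replicate 1 (-0.44), normoxic replicate 2 (-0.46) or hypoxic replicate 2 (-0.30). Zeb2 rose from 91.7 and 104 to 392 and 293 CPM (1.81, SE 0.21), and Id2 rose by 1.47, Cd44 by 1.09 and Sox2 by 0.73 (0.65, not called, without normoxic replicate 1). Of 16 markers of other brain and vascular cells 7 were tested, 2 fell and 1 rose, with 3 lower and 1 higher after length-centring. Fewer were called lower without normoxic replicate 1, normoxic replicate 2 or hypoxic replicate 1. Mbp, a myelin gene, was the most abundant and fell from 632 and 557 to 255 and 207 CPM (-1.37, SE 0.16), and Pdgfrb, a pericyte marker, rose from 1.75 and 1.17 to 10.7 and 11.8 (2.95, SE 0.27).

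Antioxidant and iron genes fell in 13 of 28 cases and rose in 6, with a median of -0.41, and 13 and 8 after length-centring. Txn1, thioredoxin, fell from 303 and 271 to 67.3 and 61.1 CPM (-2.16, SE 0.20, edgeR adjusted p 8.7e-06), and Prdx1 and Sod1 fell by 1.88 and 1.74. Heme oxygenase, Hmox1, rose from 28 and 23.6 to 167 and 169 CPM (2.70, SE 0.19). Ftl1, the most abundant, was not called (459, 364, 388 and 332 CPM). YAP and TEAD targets rose in 15 of 18 cases and fell in 3, with a median of 1.02, and 13 and 3 after length-centring. Ccn2 rose by 2.76, Axl, the most abundant, from 533 and 475 to 1207 and 893 CPM (1.06, SE 0.21), and Cavin2 fell from 35.2 and 30.2 to 8.08 and 9.07 (-1.93, SE 0.15). Ankrd1, with the largest rise, had 3 and 3 counts in normoxia and 64 and 40 in hypoxia.

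Of 20 BCL2 family and death genes 8 were higher and 8 lower, with a median of 0.07, and 7 and 4 after length-centring. The 8 lower became 4 without normoxic replicate 1 and 5 without hypoxic replicate 1. The BH3-only genes Hrk and Bbc3 rose by 3.07 and 1.62, and Mcl1, the most abundant, rose from 195 and 193 to 389 and 363 CPM (0.95, SE 0.14). Bok fell from 12.3 and 13.6 to 3.03 and 2.44 CPM (-2.25, SE 0.21), and Bak1 and Bax fell by 0.94 and 0.68. Fas, the death receptor, had 2 and 1 counts in normoxia and 162 and 43 in hypoxia and carried the partner mark. It was 1 of 13 genes with at most 3 counts in each normoxic library and at least 1 CPM in each hypoxic one. Others of the 13 were Asic4, Cxcl11, Ankrd1 and Ripor3, and 5 had predicted names. A further 13 genes met the reverse rule, mt-Tp and mt-Nd4l among them, and most of these had predicted or clone names.

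**Figure D4:**
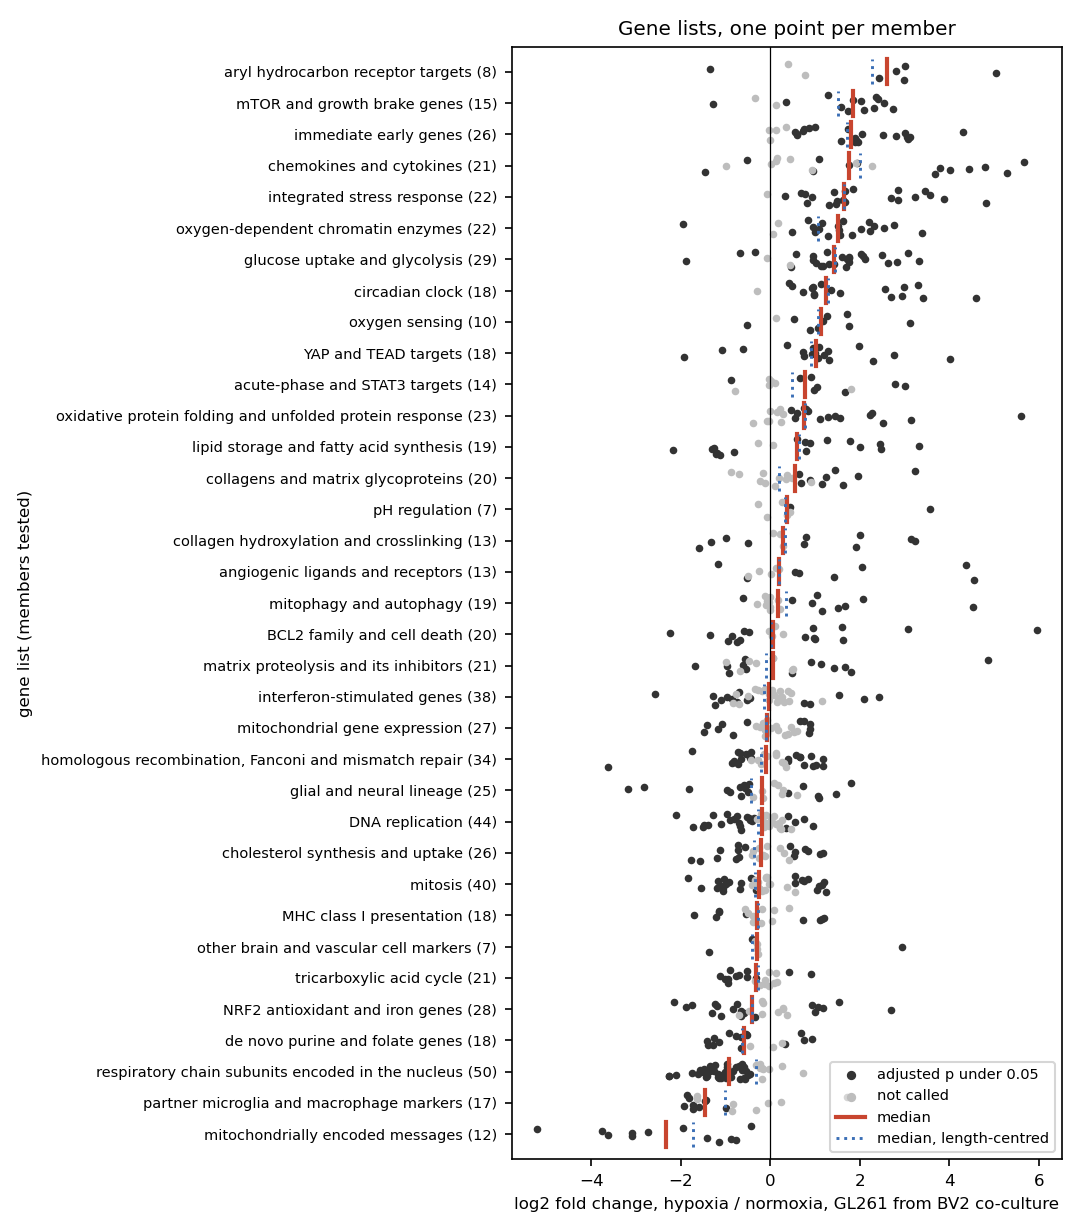
Log2 fold change (hypoxia over normoxia) of each tested member of the 35 gene lists, with the number tested in brackets. Dark points were called and grey ones were not, red bars are list medians and dotted blue bars are medians after length-centring. The bars lie apart for the nuclear respiratory chain (-0.92 and -0.32) and together for the integrated stress response (1.65 and 1.64).

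The comparison with GL261 cells grown alone asked whether BV2 cells altered this response. In cells alone 6777 genes changed (44.6%). Of the co-culture calls 71.94% were also called there, and of the calls in cells alone 84.55% were called in co-culture. Among the 5730 genes called in both, 5727 had the same direction. Across all tested genes the fold changes had a Pearson correlation of 0.862 and a Spearman correlation of 0.869, as a description, since genes are not independent replicates. The change was larger in co-culture for 4119 of the 5730 genes, with a slope of 1.11.

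The difference itself passed the edgeR threshold for no gene (0%), with a smallest adjusted p of 0.344. At an unadjusted p under 0.05 there were 1354 genes (8.91%), and DESeq2 called 47, of which 37 had a higher and 10 a lower effect in co-culture. No gene among the 47 carried the partner mark, which fell on only 2.785% of all tested genes. Of the 2235 genes called in co-culture alone, 2076 had the same sign in cells alone and 460 had an unadjusted p of the difference under 0.05. None of the 2235 passed the edgeR threshold for the difference. Picking genes called in co-culture alone by itself favours small unadjusted p values. The cells alone shared neither libraries nor, as far as the labels say, dishes with the co-cultures, and the serum of their medium is not given in the sources used here.

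The genes with the smallest p of the difference are given as values. Psrc1, a spindle gene, went from 61.5 and 61.5 to 15.7 and 18 CPM with BV2, and from 43 and 46.4 to 26.9 and 29.9 alone (difference -1.21, SE 0.19, unadjusted p 4.1e-05 and edgeR adjusted p 0.34). The helicase gene Pif1 showed a like difference (-1.11, SE 0.22). Among mitochondrial messages mt-Cytb fell by 3.09 with BV2 and 1.96 alone (difference -1.13, SE 0.21), and mt-Nd4 differed by -1.02 (SE 0.21). In the other direction the inositol carrier gene Slc5a3 went from 90.5 and 77.4 to 57.3 and 61.9 CPM with BV2 and from 107 and 108 to 36.6 and 34.3 alone (difference 1.11, SE 0.18). Its exons overlap those of Mrps6 by 159 bases. Pgm2, a phosphoglucomutase, stood at 30.5, 33.8, 75.8 and 80.6 CPM with BV2 and at 29.6, 34.2, 37 and 32.5 alone (difference 1.16, SE 0.19). Rora and Hectd2 differed by 1.02 (SE 0.19) and 1.18 (SE 0.22). Under DESeq2, mt-Cytb, Ero1l, Slc5a3, Slc2a1, Psrc1 and mt-Nd4 had the smallest adjusted p values of the difference. Ero1l reached 2470 and 3357 CPM in hypoxia with BV2 against 1111 and 1213 alone, and Slc2a1 a mean of 701 against 319.

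**Figure D5:**
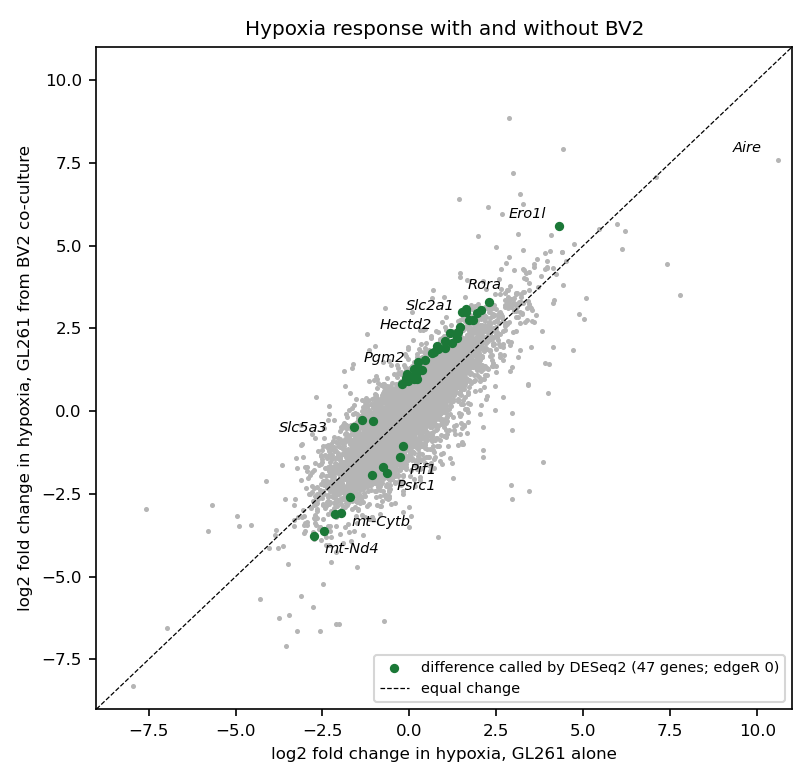
Log2 fold change in hypoxia of each tested gene in GL261 grown alone (x axis) and from co-culture (y axis), with the line of equal change dashed. Green points are the 47 genes whose difference DESeq2 called, and edgeR called 0; Psrc1, at -0.66 alone and -1.87 with BV2, lies below the line.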

How the data were processed

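The deposited table holds whole-number read counts per gene that the authors made from their reads. Per the submitters' processing notes, Trimmomatic 0.36, STAR 2.6, Picard 2.17.1, HTSeq 0.9.1, SAMtools, deepTools and build mm10 were used; their settings, the annotation and the strand setting are not given in the sources used here. Of 55487 genes, 15189 passed edgeR's filterByExpr (minimum count 10, minimum total 15). From these counts TMM factors, a quasi-likelihood fit over 8 GL261 libraries (R 4.3.3, edgeR 4.0.16) and Benjamini-Hochberg adjusted p (threshold 0.05) were computed; SE is the absolute log2 fold change over the root of F. DESeq2 1.42.0 was an alternative. The scripts were tested on simulated data. Transcript lengths came from the GENCODE annotation and promoters from RefSeq. Named genes were the 10 largest rises and falls (called, groups apart, mean log2 CPM 4 or more, no partner mark, not 4-fold or more higher in BV2, no predicted name), members of gene lists (the largest called rise and fall and the most abundant always), the 4 smallest p of the difference each way, and 3 BV2-specific genes; a few genes the rule names are not reported here. The members, lists and tests were chosen with earlier results of these data known. With 2 libraries per group, precision is limited, and the floor of 3 counts covers counting error only.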

Additional observations from a re-analysis of the deposited data

How the results depend on the processing

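The count of 7965 genes called stayed within 1.5 times under every alternative run: 7515 with DESeq2, 7971 with DESeq2 size factors, 7865 with library totals alone, 8078 without a filter, 6726 at a mean CPM of at least 5, 8649 from the 4 co-culture libraries alone, 7402 without genes high in BV2, and 5748 to 6689 when each co-culture library was left out. Length-centring (7540 genes) and leaving out mitochondrial genes (7966) were chosen after seeing the data. With the replicate block 8661 genes were called and the difference from monoculture stayed at 0; the labels do not pair the libraries, and same-numbered co-culture libraries had a correlation of deviations of 0.160. The difference from monoculture gave 47 genes with DESeq2 and 73 without a filter; the cause was not tested. With BV2-specific genes set at 1000-fold, chosen after seeing the data, the hypoxic partner share was 0.182% in place of 0.241%. Of 223 genes named, 185 kept call and direction under every alternative, 28 lost the call under at least 1 and 8 gained it. Gapdh (0.46) and Calr (-0.37) gained it under DESeq2, for example. Length-centring turned Bsg to 0.34, Ftl1 to 0.53 and mt-Nd6 to 0.42. Of 980 counts of list members, 85 moved by over 1.5 times. Fas, Ankrd1, mt-Nd4l and Oasl1 carry no fold, with a group at or near 3 counts.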
